A study of Mus musculus with 120 samples.

Results

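The 9 genes described here encode proteins by which a lymphocyte holds on to and moves through tissue. They are Adam8, Pecam1, the integrin subunits Itgb7, Itga4, Itgb1, Itgal and Itgae, and the receptors S1pr1 and Cxcr6, 9 of the 46078 genes in the count files. The set was chosen from measured values of these same cells, namely the group levels of Adam8 and Pecam1, and was filled up with adhesion and homing genes. All group levels and shares of cells below are therefore a description of the set, with no test. The cells were 120 single group 2 innate lymphoid cells (ILC2) of wildtype C57BL/6 mice. Mesentery of 20 mice was pooled, lineage-negative c-Kit+ Sca-1+ cells were sorted, and the cells were cultured for several months before use. Secretion of 1 cytokine, IL-13 or IL-5, here called the index, was watched in each cell by live imaging during incubation with IL-2 and IL-33. For each index, 5 cells were recovered before stimulation and 11 cells each at 30, 60 and 90 min after the onset of their secretion (transition cells). A further 11 secreting (activated) cells and 11 cells without secretion (silent) were recovered at 8 h of stimulation, which makes 12 groups of index and state. No mouse or culture is named for a cell, so each group was taken as 1 sample and no difference was tested. Replicate numbers below only name cells of a group.

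Integrins are surface receptors made of an alpha and a beta chain, which bind matrix or other cells after signals inside the cell switch them on. The alpha 4 chain (Itga4) pairs with beta 7 (Itgb7), which binds the gut vessel addressin MAdCAM-1, or with beta 1 (Itgb1), which binds VCAM-1 and fibronectin. Alpha E (Itgae) pairs with beta 7 to hold cells to E-cadherin of epithelium, and alpha L (Itgal) pairs with beta 2 to form LFA-1, which binds ICAM-1. Adam8 is a membrane metalloprotease that cleaves adhesion molecules from the cell surface. Pecam1 (CD31) is an adhesion and inhibitory receptor of the immunoglobulin family at endothelial junctions and on leukocytes. S1pr1 leads lymphocytes out of tissue along sphingosine 1-phosphate, and Cxcr6 binds the chemokine CXCL16 and helps to keep innate lymphoid cells in their tissues.

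The files held 31016336 reads in genes. Cells had between 65 and 785198 of them (median 254001), and 6 shallow cells had fewer than 84667. Group totals ranged from 964383 to 3732032 reads, and levels are CPM, the summed counts of a group scaled to 1000000 gene reads. Intervals are exact 95% Poisson intervals, which cover counting error only, and reads carried no molecular identifiers. All 13 ILC2 marker genes looked for had reads, and their summed level was 5762 CPM or more in each group. Pecam1 also marks endothelial cells and platelets, and 6 of 7 other endothelial genes and 5 of 5 platelet genes were at 0 reads, with 0.378 CPM as the highest summed endothelial level. Markers of B cells, of NK cells or ILC1, and of fibroblasts or adipocytes (14 genes) were also at 0. Of 6 T-cell genes Cd4, Cd8a and Cd5 were at 0, whereas Cd3g had reads in 26 cells and stood at 1128 CPM in the IL-13 and 1195 CPM in the IL-5 pre-stimulation cells. It was at 179.7 and 20.3 CPM at 30 min, 0 in activated cells of both indexes, and 505 and 28.4 CPM in silent cells. Cd3d, read in 4 cells, was at 0 before stimulation, 70.6 CPM at IL-13 30 min and 14.7 CPM in IL-13 silent cells. Cd3e stood at 3.02 CPM or less. Of 5 mast cell or basophil genes Mcpt4, Cma1 and Mcpt8 were at 0, and Fcer1a had reads in 15 cells and stood at 301 CPM in IL-13 pre-stimulation cells, 0 at IL-13 30 min and 326 CPM at IL-13 90 min, its highest level. Of 3 ILC3 genes Il17a was at 0, and Il22 had reads in 3 cells, all IL-13 activated (344 CPM). Of 6 macrophage or dendritic cell genes Lyz2, Csf1r and Itgax were at 0, and the others summed to 38.3 CPM or less. The 5 cell cycle genes summed to 2568 CPM in the IL-13 and 254 CPM in the IL-5 pre-stimulation cells, and to between 41.2 and 168 CPM in the other groups. The part of these genes in the differences between states was not tested.

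Of the 9 genes, 8 had at least 1 read, and 6 averaged 10 CPM or more across groups, namely Adam8, Pecam1, Itgb7, Itgb1, Itgal and Cxcr6. S1pr1 (chr3:115710433-115715072, minus strand, GRCm38) had 0 reads in 120 cells, where 3 reads would be 0.0967 CPM over all reads. Itga4 (chr2:79255426-79333123, plus strand) had 2 reads, both in replicate 6 of the IL-13 silent cells. The exons of Itga4 share 1124 bases with those of Cerkl on the opposite strand, 533 of them within the last 1000 exonic bases. Without the strand setting of the counting, reads there cannot be told apart, and Cerkl also had 0 reads. Itgae (chr11:73090583-73147446, plus strand) had 76 reads, of which 98.7% lay in replicate 11 of the IL-5 silent cells at 252 CPM. The alpha 4 and alpha E chains thus had no counted read in nearly all cells in which beta 7 or beta 1 was read, and for Itga4 depth and the overlap with Cerkl cannot be told apart. Adam8 (chr7:139978932-139992562, minus strand) shares 46 exonic bases with the antisense Gm16201, which had 850 reads, and the microRNA gene Mir7062 lies within it. The other members with reads lay at chr11:106654217-106750628 (Pecam1, minus strand), chr15:102215995-102231944 (Itgb7, minus strand), chr8:128685654-128733200 (Itgb1, plus strand), chr7:127296260-127335138 (Itgal, plus strand) and chr9:123806475-123811760 (Cxcr6, plus strand).

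RefSeq start sites were matched for 5 members (Adam8, Itgb7, Itga4, Itgb1 and Cxcr6). The 250 bases before the start site are shown for Adam8, which had 0 reads before stimulation, and for Itgb7, which was read before stimulation and low in activated cells. Both are on the minus strand of GRCm38.p6, at chr7:139992563-139992812 and chr15:102231936-102232185, and are written 5′ to 3′ in the direction of the gene. Capitals mark a GC box (GGGCGG) or a CCAAT box (CCAAT) on either strand.
Adam8: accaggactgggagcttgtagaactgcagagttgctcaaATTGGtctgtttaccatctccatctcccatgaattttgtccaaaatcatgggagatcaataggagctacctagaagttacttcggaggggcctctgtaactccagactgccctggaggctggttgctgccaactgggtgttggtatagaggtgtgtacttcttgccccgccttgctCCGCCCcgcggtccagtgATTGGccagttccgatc
Itgb7: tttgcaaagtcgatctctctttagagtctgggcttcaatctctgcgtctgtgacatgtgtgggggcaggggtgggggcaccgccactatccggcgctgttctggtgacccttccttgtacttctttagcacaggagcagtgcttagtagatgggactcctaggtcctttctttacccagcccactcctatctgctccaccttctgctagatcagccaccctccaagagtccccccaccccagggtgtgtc
The Adam8 window held 1 GC box and 2 CCAAT boxes, and the Itgb7 window held neither. Of the windows not shown, those of Itga4 and Itgb1 held 1 GC box each and that of Cxcr6 none, and none of them held a CCAAT box. GC boxes were found in 33.0% and CCAAT boxes in 33.8% of the windows of the same length before 32544 start sites. The NF-kB consensus was in none of the 5 windows and in 7.28% of all. The AP-1 letters TGANTCA were likewise in none of the 5 and in 6.73% of all windows. The cyclic AMP response element, TGACGTCA, was absent from the 5 windows and present in 1.55% of all. The letters AGATAA, which GATA factors bind, were found in 0 of 5 and in 9.97% of all windows. The GC and CCAAT letters were looked for after these windows had been read.

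Adam8 was read in transition cells of both indexes and in few others. In the 10 pre-stimulation cells it had 0 reads in every cell, which allows up to 3.83 CPM in the IL-13 and 3.04 CPM in the IL-5 cells. In 58 of 66 transition cells it had at least 1 read, and in 53 at least 5 reads. At 30 min the IL-13 cells ranged from 3.45 to 1439 CPM with a median of 342, and the group stood at 383 CPM (359 to 407). The IL-13 level was 240.4 CPM at 60 min and 338 CPM at 90 min, with cells from 0 to 588 and from 9.19 to 1380.0 CPM. The IL-13 30 min level was 292 CPM without replicate 4, at 1439 CPM, which is below the 90 min level, so that the order of these times rested on 1 cell. In the IL-5 index the cells ranged from 0 to 648 CPM at 30 min with a median of 159, and the group stood at 216 CPM (201 to 232). It stood at 159 CPM at 60 min and 267 CPM (244 to 292) at 90 min, so that in this index the counting interval of 90 min lay above that of 30 min. Without the cell that held most reads, the IL-5 level was 151 CPM at 30 min (replicate 11) and 236 CPM at 90 min (replicate 1). The order of the times differed between the 2 title dates in both indexes. At 30, 60 and 90 min the IL-13 levels were 637, 193 and 335 CPM on the first date and 232, 264 and 339 CPM on the second. The IL-5 levels were 135, 306 and 372 CPM on the first date and 279, 39.2 and 177 CPM on the second. No order of the times after onset is therefore read from Adam8.

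Activated cells, which secreted at 8 h, had few Adam8 reads. With IL-5 as the index 0 of 11 activated cells had a read, which allows up to 0.988 CPM. In the IL-13 index 3 of 11 had one, and replicate 9 held 88.8% of the reads at 536 CPM, so that the level was 39.1 CPM with it and 4.69 CPM without it. That cell also had 1481 CPM of Il13. Silent cells of both indexes stood at similar levels, 37.8 CPM (30.7 to 46.0) and 38.5 CPM (31.9 to 46.1), but in different numbers of cells. With IL-13 as the index all 100 reads lay in replicate 7 at 313 CPM, which had 0 reads of Il13 and 805 CPM of Il5. For the IL-5 index 6 of 11 silent cells had reads, from 0 to 141 CPM with a median of 2.79. These were 5 of 5 cells of the first title date at 68.6 CPM and 1 of 6 of the second at 4.83 CPM. The highest of them, replicate 3 at 141 CPM, had 389 CPM of Il5 and 955 CPM of Il13.

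**Figure D1:**
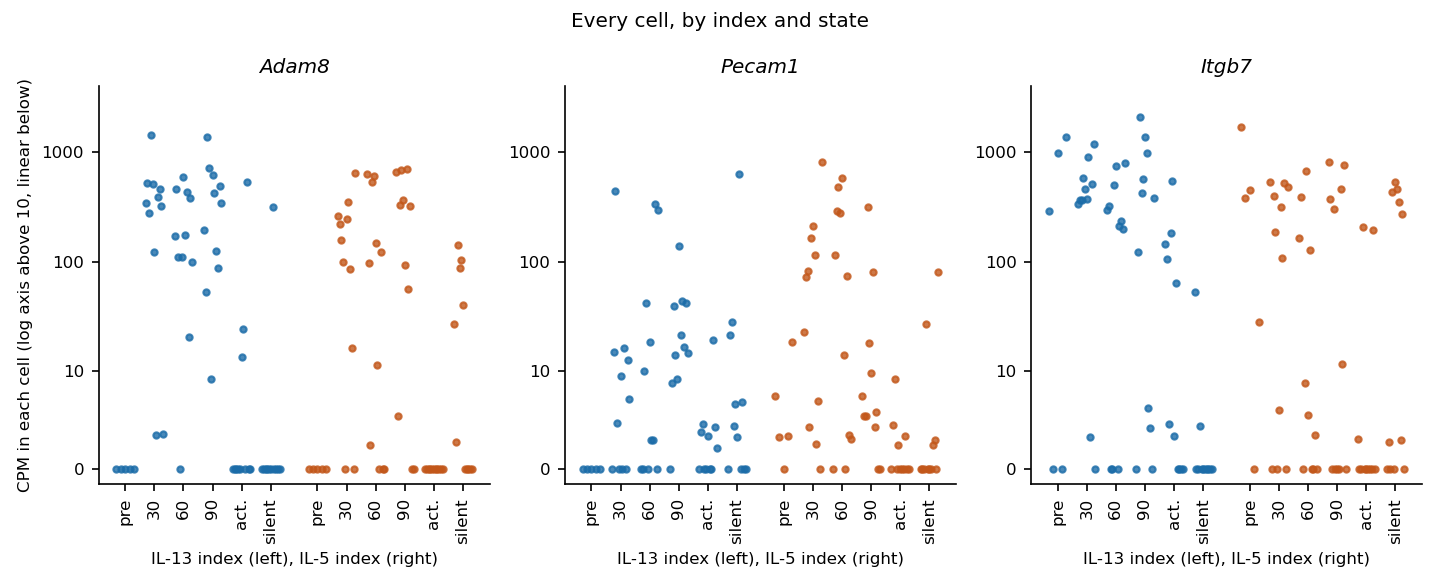
Level in each of the 120 cells (points) for Adam8, Pecam1 and Itgb7, by index (blue IL-13, orange IL-5) and state on the horizontal axis. The vertical axis is CPM per cell, linear below 10 and logarithmic above it. Adam8 was at 0 in 10 of 10 pre-stimulation cells and above 0 in 58 of 66 transition cells, whereas high Pecam1 values lay in fewer cells.

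Pecam1 was higher in transition cells than before stimulation or in activated cells, but it was carried by fewer cells than Adam8. In the IL-5 index it stood at 5.77 CPM (2.32 to 11.9) before stimulation, 175 CPM (161 to 189) at 30 min, 134 CPM at 60 min, 32.8 CPM at 90 min, 1.61 CPM in activated and 11.1 CPM in silent cells. The cells at 30 min ranged from 0, only in replicate 10 with 73 gene reads in all, to 807 CPM, with a median of 73.0. Replicate 11 held 60.5% of the reads, and the level was 79.4 CPM without it. This replicate also had the highest Adam8 level of its group. Without replicate 3, which held most reads, the 60 min level was 113 CPM, so that the order of 30 and 60 min rested on single cells. For the IL-13 index the level was 0 before stimulation, 38.5 CPM at 30 min (31.4 to 46.7), 82.0 CPM at 60 min (72.1 to 92.8) and 33.0 CPM at 90 min. Activated cells stood at 2.82 CPM and silent ones at 80.9 CPM (70.4 to 92.4). Replicate 3 held 84.5% of the reads at 30 min at 444 CPM, and the other cells of that group summed to 6.45 CPM. At 60 min replicate 9 held 51.4%, and the level was 45.6 CPM without it. In silent cells replicate 7 held 93.5%, and the level was 6.01 CPM without it. This is the silent cell that also held all Adam8 reads of its group. The counting intervals of IL-13 60 min and silent cells overlapped. The order of the IL-13 groups differed between the title dates, with 91.6, 7.81, 11.6 and 12.0 CPM at 30, 60 and 90 min and in silent cells on the first, and 7.13, 119, 40.5 and 117 CPM on the second. For IL-5 the levels at 30, 60 and 90 min were 81.8, 206 and 54.5 CPM on the first date and 247, 75.1 and 14.2 CPM on the second.

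Low counts of Pecam1 were spread over many cells of all states. A read was present in 77 of 120 cells, but 20 or more reads in 17 of 66 transition cells, 0 of 10 pre-stimulation, 0 of 22 activated and 2 of 22 silent cells. For Adam8, 20 or more reads were present in 46 of 66 transition, 0 of 10 pre-stimulation, 1 of 22 activated and 4 of 22 silent cells. Among deeper cells with under 20 reads, 19 of 34 held 1 to 4 Pecam1 reads where a cell of the same state and title date had 20 or more, and 26 of 61 where none had. The same counts for Adam8 were 7 of 29 and 0 of 36. Libraries were pooled by 5 or 6 before tagmentation, but the labels do not say which cells shared a pool, so state and title date stand for the pools only as an assumption. Under this assumption, state within a title date and pool cannot be told apart in any comparison of states. Whether reads passed between libraries was not tested. With at least 5 reads of both genes as the limit, 9 of 33 IL-13 and 14 of 33 IL-5 transition cells had both, 30 had Adam8 alone (20 and 10) and 3 had Pecam1 alone (1 and 2). Among the other states, both were present in 1 silent cell of each index and in 0 pre-stimulation and 0 activated cells. Of the 26 transition cells with Pecam1 at this limit 23 also had Adam8, beside 53 of all 66. These were 9 of 10 beside 29 of 33 for IL-13, and 14 of 16 beside 24 of 33 for IL-5.

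**Figure D2:**
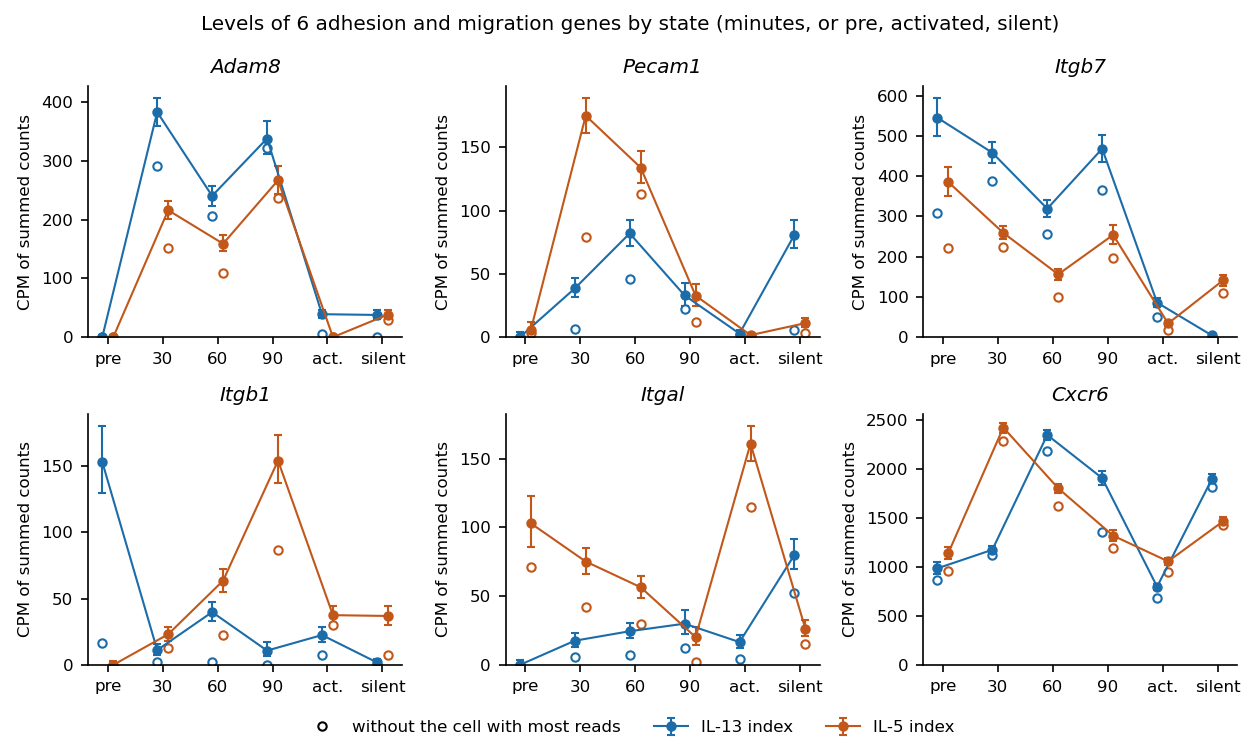
CPM of summed counts (vertical axes, from 0) of 6 genes by state (horizontal axes), for the IL-13 (blue) and the IL-5 index (orange). Filled points are group levels with exact 95% Poisson intervals, and open points are the levels without the cell that held most reads. Adam8 stood between 159 and 383 CPM in the transition groups and at 39.1 CPM or less elsewhere, and the open points of Pecam1 and Itgb1 lie far below the filled ones in several groups.

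Itgb7, the beta 7 chain, took another course than Adam8, with reads before stimulation and lower levels in activated cells. The 5 IL-13 pre-stimulation cells had 288, 0, 971, 0 and 1366 CPM, and the 5 IL-5 cells had 1702, 378, 446, 0 and 28.0 CPM. The group levels were 545 CPM (499.8 to 594) and 385 CPM (351 to 422). In each index most of these cells were high and the others at or near 0. In the transition the IL-13 levels were 458, 319 and 468 CPM at 30, 60 and 90 min, and the IL-5 levels were 259, 156 and 254 CPM. For IL-13, activated cells had 85.8 CPM (75.9 to 96.6), with cells from 0 to 539 and a median of 4.58. For IL-5 they had 34.0 CPM (28.4 to 40.5), with cells from 0 to 208 and a median of 0. The IL-13 activated level differed between title dates, with 196 CPM in 5 cells and 14.0 CPM in 6 cells. Silent cells of the indexes stood apart, with 4.16 CPM (2.07 to 7.44) from 11 reads in 2 of 11 cells in the IL-13 index, and 141 CPM (128 to 155) in 7 of 11 cells in the IL-5 index. The IL-13 silent cells had the lowest Itgb7 level of the 12 groups, and their intervals did not overlap those of any other group.

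Itgb1, the beta 1 chain that shares alpha 4 with beta 7, was read in 38 of 120 cells. Its highest group levels were 154 CPM (137 to 173) at 90 min of the IL-5 index, where 6 of 11 cells had reads, and 153 CPM in IL-13 pre-stimulation cells. The latter rested on replicate 2 at 799.9 CPM, with 91.2% of the reads, and the other 4 cells had 0, 0, 5.93 and 55.6 CPM. With IL-5 as the index the level was 0 before stimulation in 5 of 5 cells, 23.1, 63.5 and 154 CPM at 30, 60 and 90 min, and 37.5 and 36.9 CPM in activated and silent cells. The summed IL-5 level was thus higher at each later time after onset, also without the highest cell of each group, at 12.9, 22.8 and 86.8 CPM. On the title dates it was 39.9, 95.6 and 97.1 CPM and 10.0, 37.6 and 203 CPM, so that 60 and 90 min hardly differed on the first. There replicate 1 held 145 of the 146 reads at 60 min. Reads were present in 3, 3 and 6 of 11 cells at 30, 60 and 90 min, and no course after onset is read from so few cells. With IL-13 as the index the transition levels were 11.2, 39.8 and 10.8 CPM, and 1 cell held 80.0% or more of the reads at each time.

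Counts of Itgb7 and Itgb1 were set against each other within groups. Itgb7 made up 50% or more of their summed reads in 11 of 12 groups. For the IL-5 index its share was 100.0% before stimulation, then 91.8%, 71.1% and 62.2% at 30, 60 and 90 min, 47.6% in activated and 79.3% in silent cells. For the IL-13 index it was 78.0% before stimulation, 97.6%, 88.9% and 97.7% in the transition, 79.2% in activated and 68.8% in silent cells, the last from 16 reads in 3 cells. On leaving out any 1 cell the IL-5 activated share ranged from 31.7% to 55.2% and the IL-13 pre-stimulation share from 62.9% to 97.6%. Both chains were read in the same cell in 0 to 4 cells per group. The share of the sum therefore mostly counted cells with 1 chain or the other.

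**Figure D3:**
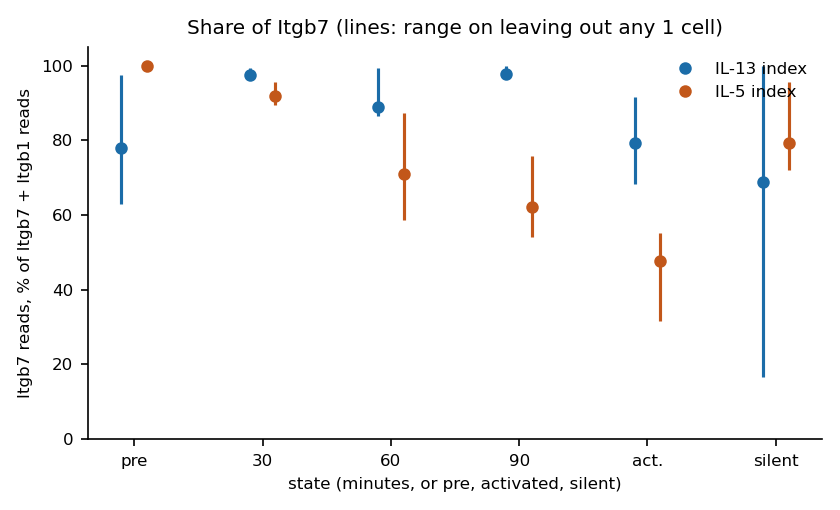
Itgb7 reads as a percentage of Itgb7 plus Itgb1 reads (vertical axis) by state (horizontal axis) in the IL-13 (blue) and IL-5 (orange) index. Points are shares of the summed reads of a group and lines the range on leaving out any 1 cell. In the IL-5 index the share was 100.0% before stimulation and 47.6% in activated cells.

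Itgal, the alpha chain of LFA-1, was most widely read in IL-5 activated cells. It had reads in 10 of 11 of these cells, which ranged from 0 to 627 CPM with a median of 80.4, and the group level was 161 CPM (148 to 174). The title dates gave 170.3 and 153 CPM there. In the other stimulated groups Itgal was read in 2 to 5 of 11 cells. The IL-5 pre-stimulation cells had 299.9, 0, 117, 0 and 252 CPM (group level 103 CPM), and the 5 IL-13 pre-stimulation cells had 0. In the IL-13 index the levels were 17.6, 24.5 and 30.0 CPM in the transition, with 16.6 CPM when activated and 80.1 CPM (69.7 to 91.6) when silent. Activated cells were thus above silent cells in the IL-5 index and below them in the IL-13 index. Itgb2, its partner chain, did not follow it in the IL-5 index, with 3.75 CPM in activated cells and reads in 1 of 11. In the IL-13 silent cells Itgb2 stood at 55.2 CPM, the highest of its 12 levels. It was read there in 3 of 11 cells, and 54.1% of its reads lay in replicate 6, which had 0 Itgal reads.

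Cxcr6 was read in 118 of 120 cells, and the 2 cells without a read had 73 and 65 gene reads. Its levels had the narrowest range, in fold terms, of the 6 members above the 10 CPM minimum. With IL-13 as the index they were 985 CPM before stimulation, 1174, 2345 and 1905 CPM in the transition, 798 CPM in activated and 1898 CPM in silent cells. With IL-5 as the index they were 1142, 2421, 1801, 1318, 1056 and 1464 CPM in the same order. Activated cells had the lowest summed level of each index, but not on each title date. IL-13 activated cells stood at 1282 CPM on the first date, above pre-stimulation cells and 30 min (1214 CPM), and at 483 CPM on the second. IL-5 activated cells were at a log2 ratio of -0.11 to pre-stimulation cells, with a range of -0.33 to 0.16 on leaving out any 1 cell. The highest summed level was 30 min in the IL-5 index (2369.6 to 2472) and 60 min in the IL-13 index (2291 to 2399.8), with cells from 757 to 3654 CPM and a median of 2447 in the latter. On the first title date the IL-5 level was 2016 CPM at 30 min and 2103 CPM at 60 min. The IL-13 90 min level was 1357 CPM without replicate 9, which held 39.1% of the reads.

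Shares of cells with a read were also taken with 100000 gene reads drawn at random per cell (thinning), for the 113 cells that had as many, and 7 cells were left out. Adam8 was then found in 81.8%, 90.9% and 100.0% of IL-13 cells at 30, 60 and 90 min (100.0%, 90.9% and 100.0% unthinned), and in 90.0%, 70.0% and 90.0% of IL-5 cells (9, 8 and 9 of 11 unthinned). Pecam1 was found in 36.4%, 63.6% and 87.5% of the IL-13 cells and in 80.0%, 70.0% and 50.0% of the IL-5 cells, with 7, 7 and 10 and with 10, 9 and 9 of 11 cells unthinned. In the IL-5 pre-stimulation cells Pecam1 was found in 80.0% of 5 cells, from 7 reads in all, so that its share of cells was the same as at 30 min while the CPM was not. No order was read from that share. Itgb7 was found in 45.5% and 18.2% of IL-13 and IL-5 activated cells, and Cxcr6 in 100.0% of cells of each group. Exact (Clopper-Pearson) 95% intervals of these shares are wide, from 48.2% to 97.7% for Adam8 at 30 min of the IL-13 index.

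**Figure D4:**
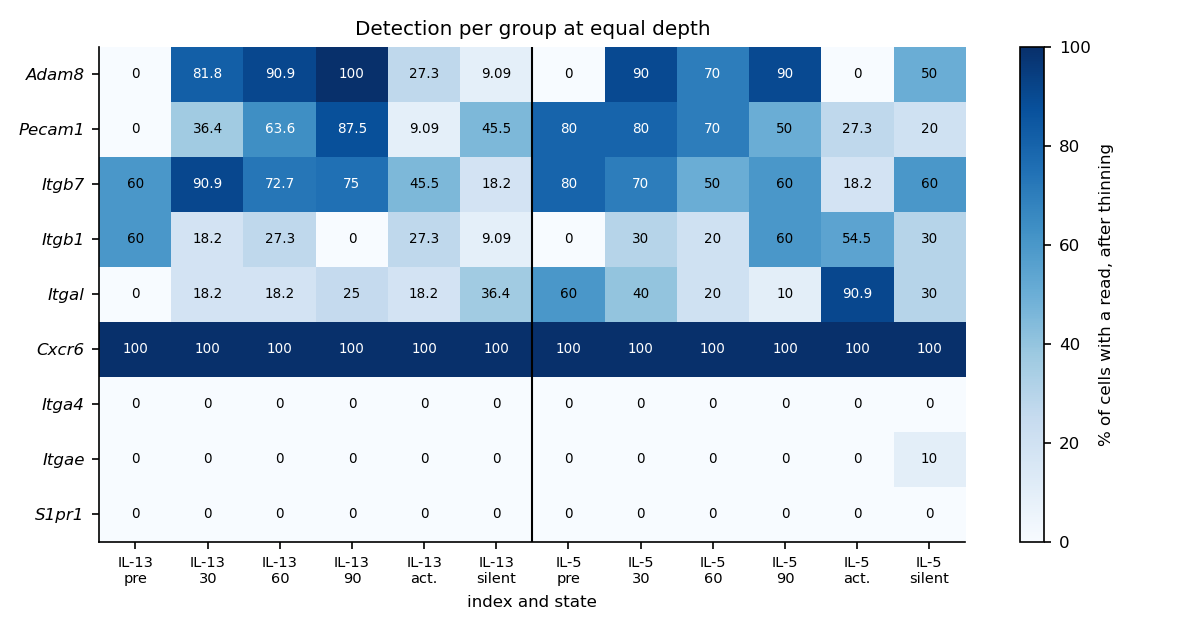
Percentage of cells with at least 1 read after thinning to 100000 gene reads (colour and number), for the 9 genes (rows) in the 12 groups of index and state (columns). Adam8 was at 0 before stimulation and between 70.0 and 100.0 in the transition groups, Cxcr6 was at 100.0 throughout, and Itga4 and S1pr1 were at 0 throughout.

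For comparisons between states, a gene was called when the CPM of its groups differed by 2-fold or more and stayed so, in the same direction, on leaving out any 1 cell. A group under 3 reads was set to 3 reads. Where a group had 0 reads, the words at least before a fold refer to this floor and to the summed counts only. Counting error or leaving out 1 cell can give a lower fold. Calls were counted over 6620 genes that averaged 10 CPM or more, 6 of them members. From pre-stimulation to 30 min in the IL-13 index Adam8 and Pecam1 were called higher, against 18.1% of all genes, and 0 members were called lower, against 8.07%. Adam8 was at least 123-fold higher (log2 6.94, 6.52 to 7.11 on leaving out any 1 cell). Pecam1 was at least 12.4-fold higher, with a log2 range down to 1.05 without replicate 3. It was not called on the first title date, at a log2 ratio of 4.88, nor without the highest cell of both groups, at 0.63. For the IL-5 index Adam8, Pecam1 and Itgb1 were called higher (23.1% of all genes) and 0 members lower (7.78%). Adam8 was at least 87.3-fold higher, Pecam1 30.2-fold (log2 4.92, 3.78 to 5.86) and Itgb1 at least 9.33-fold. As Adam8 and Pecam1 were chosen on this difference, nothing is read from their count. Itgb7 did not differ by 2-fold in either index, with log2 ratios of -0.25 and -0.57. Cxcr6 was 2.12-fold higher in the IL-5 index, but under 2-fold without 1 of the cells, and 1.19-fold higher in the IL-13 index.

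From pre-stimulation to activated cells, Itgb7 was called lower in both indexes. It was 6.36-fold lower in the IL-13 index (log2 -2.67, -3.47 to -1.85) and 11.3-fold lower in the IL-5 index (log2 -3.50, -4.39 to -2.71). For the IL-13 index this was the 1 member called lower, against 8.99% of all genes, and 0 were called higher, against 23.2%. In the IL-5 index Itgb7 was again the 1 member called lower (10.1% of all genes), and Itgb1 was called higher (27.3%), at least 15.2-fold. Itgb1 lay in the other direction with IL-13 as the index, where it was not called, at a log2 ratio of -2.77 in activated cells (22.5 against 153 CPM, -4.36 to 0.46 on leaving out any 1 cell) and of -3.78 at 30 min (-5.99 to -0.54). The difference between the indexes was not tested. From pre-stimulation to silent cells in the IL-13 index Itgal was called higher (20.4% of all genes), at least 25.7-fold, and Itgb7 and Itgb1 were called lower (6.71%), 131-fold (log2 -7.04, -8.80 to -6.21) and 81.2-fold (log2 -6.34). The Itgb1 ratio was -3.11 without the highest pre-stimulation cell, and -3.77 and not called without the highest cell of both groups. With IL-5 as the index Adam8 and Itgb1 were called higher (23.9% of all genes), 15.6-fold and 14.9-fold against the floor of 3 reads. On leaving out any 1 cell the log2 ratio of Itgb1 ranged from 1.57 to 4.10. Itgal was called lower (8.01%), 3.95-fold (log2 -1.98, -2.73 to -1.45). Itgal thus went in opposite directions in the silent cells of the indexes, whose pre-stimulation cells also differed, and the difference between the indexes was not tested. With the pre-stimulation cells of both indexes together these Itgal ratios were 0.48 and -1.14, and neither was called. With the same combined cells, which include the 1 cell at 799.9 CPM, the Itgb1 ratios of the IL-5 index turned, to -1.56 at 30 min, -0.86 in activated and -0.88 in silent cells. On the first title date alone, the only one with pre-stimulation cells, Itgb7 in IL-13 activated cells was at -1.47 and not called. In IL-5 silent cells the Itgb1 (2.25) and Itgal (-1.32) calls were also lost on that date, and Itgb1 was at 1.40 and not called without the highest cell of both groups.

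Between 30 min and activated cells the members called were higher at 30 min. Adam8 and Pecam1 were chosen for their levels at onset, so nothing is read from their count here either. In the IL-13 index these were Adam8 (9.77-fold, log2 3.29, 2.90 to 6.35), Pecam1 (13.7-fold, log2 3.77, 1.19 to 4.52) and Itgb7 (5.33-fold, log2 2.42, 2.18 to 3.22), against 13.4% of all genes called higher, and 0 members against 18.3% called lower. For the IL-5 index Adam8 (at least 269-fold), Pecam1 (109-fold, log2 6.76, 5.63 to 7.63), Itgb7 (7.62-fold, log2 2.93, 2.71 to 3.82) and Cxcr6 (2.29-fold, log2 1.20, 1.11 to 1.36) were called higher (13.1% of all genes) and 0 lower (14.1%). The Cxcr6 call was lost when CPM was averaged over cells in place of summed counts (log2 1.08), on the first title date (0.92) and with all 33 transition cells (0.89). Of the IL-13 calls, that of Itgb7 was lost on the first date (1.12) and that of Pecam1 on the second (0.98). The latter was also lost when CPM was averaged over cells (3.76) and with log2(CPM + 10) (1.92). Between activated and silent cells of the IL-13 index Itgb7 (20.6-fold, log2 4.37, 3.56 to 6.14) and Itgb1 (11.9-fold, log2 3.58, 1.98 to 4.23) were called higher in activated cells (13.2% of all genes). Pecam1 (28.7-fold), Itgal (4.83-fold, log2 -2.27, -4.27 to -1.66) and Cxcr6 (2.38-fold) were called lower (14.4%), where Pecam1 had a log2 ratio of -1.09 without silent replicate 7. The Pecam1 and Cxcr6 calls were lost with edgeR's TMM factors, at ratios of -4.68 and -1.09. In the IL-5 index Itgal (6.15-fold, log2 2.62, 2.15 to 3.37) was called higher in activated cells (11.5% of all genes), and Adam8 (at least 47.9-fold), Pecam1 (6.90-fold, log2 -2.79, -3.65 to -1.17) and Itgb7 (4.15-fold, log2 -2.05, -2.94 to -1.68) were called lower (10.7%). Itgb7 was therefore higher in activated than in silent cells for IL-13 and lower for IL-5. The IL-13 call of Itgb7 was lost on the second title date (3.01), and the IL-5 call on the first (-0.98). On the second date the IL-13 calls of Pecam1, Itgb1 and Itgal were lost as well (-5.02, 2.26 and -0.95), and on the first those of Itgb1 and Cxcr6 (3.02 and -0.50). In IL-5 cells the Pecam1 call was lost on each date (-0.65 and -3.68), and that of Adam8 on the second (-1.79).

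**Figure D5:**
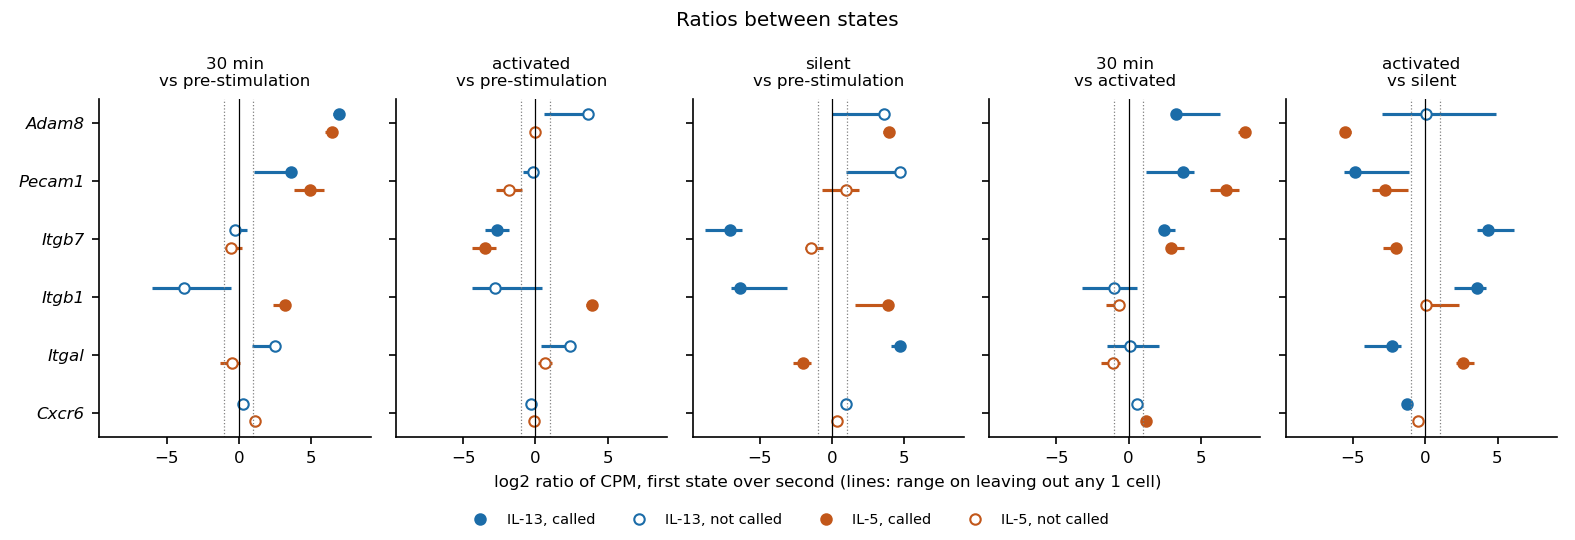
Log2 ratio of CPM between the states named above each panel (horizontal axes, first over second state) for 6 genes (rows), in the IL-13 (blue) and IL-5 (orange) index. Lines give the range on leaving out any 1 cell, filled points are called genes, open points are not, and dotted lines mark 2-fold. Itgb7 lies left of 0 against pre-stimulation in activated cells of both indexes, at -2.67 and -3.50.

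Other genes of adhesion and migration were taken from 8 lists of 74 genes, 43 of which passed the same minimum. From pre-stimulation to 30 min 7 were called higher and 5 lower in the IL-13 index (median log2 0.00, as for all genes), and 9 and 7 in the IL-5 index (median -0.39, against 0.10). These were 16.3% higher and 11.6% lower of the 43 genes for IL-13, beside 18.1% and 8.07% of all genes, and 20.9% and 16.3% for IL-5, beside 23.1% and 7.78%. Cd44, the hyaluronan receptor, was read in 1 of 5 pre-stimulation cells of each index and in 11 of 11 and 9 of 11 cells at 30 min. It rose from 24.9 to 689 CPM in the IL-13 index (27.7-fold) and from 4.95 to 614 CPM in the IL-5 index (124-fold). The other genes with the largest rises were Itgav, the integrin alpha V chain, from 0 to 69.9 CPM (at least 22.5-fold) in the IL-13 index, and the metalloprotease Adam19 from 0 to 148 CPM (at least 59.6-fold) in the IL-5 index. At IL-13 30 min Itgav was read in 2 of 11 cells, and replicate 9 held 71.7% of its reads. Cd69, a retention receptor that binds S1PR1, was called higher in both indexes, from 12.4 to 194 CPM and from 33.0 to 224 CPM. The largest falls were Cd48 (9.08-fold) and the GTPase Rap1a (6.65-fold) for IL-13, and for IL-5 the integrin-linked kinase Ilk and the chemokine receptor Ccr2, both to 0 reads, from 403 and 286 CPM.

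From pre-stimulation to activated cells 3 listed genes were called higher and 9 lower in the IL-13 index (median -0.71, against 0.11 over all genes), and 6 and 12 in the IL-5 index (median -0.64, against 0.14). The shares were 6.98% higher and 20.9% lower for IL-13, beside 23.2% and 8.99% of all genes, and 14.0% and 27.9% for IL-5, beside 27.3% and 10.1%. Icam2 (98.0 CPM) and Cxcr4 (47.0 CPM), both from 0, rose most in the IL-13 index, and Cd44 (60.1-fold) and Ccr4 (from 0 to 128 CPM) in the IL-5 index. Replicate 10 held 86.7% of the Cxcr4 reads of IL-13 activated cells. The log2 ratio of Cxcr4 was 3.92, and 1.12 at the lowest on leaving out 1 cell. Ccr2 fell from 322 and 286 CPM to 0 in both indexes, at least 343-fold and 356-fold. Rgs2, a regulator of G protein signalling, fell 13.1-fold in the IL-13 index, and Itgb3, the integrin beta 3 chain, fell from 237 CPM to 0 in the IL-5 index. From pre-stimulation to silent cells 8 were called higher and 4 lower in the IL-13 index (median 0.02, against 0.26), and 10 and 9 in the IL-5 index (median -0.56, against 0.17). Their shares were 18.6% and 9.30% for IL-13, beside 20.4% and 6.71% of all genes, and 23.3% and 20.9% for IL-5, beside 23.9% and 8.01%. Itgav and Ccr6 (both 178 CPM from 0) rose most in the IL-13 index, and Icam1, the ligand of LFA-1 (172 CPM from 0), and Adam19 (124 CPM from 0) in the IL-5 index. These rises rested on few cells. Itgav was read in 3 and Ccr6 in 2 of 11 IL-13 silent cells, and replicate 3 held 83.3% of the Icam1 reads of IL-5 silent cells. On leaving out 1 cell the log2 ratio of Icam1 went from 6.12 down to 3.67, and that of Adam19 from 5.65 to 4.41. Ccr2 (at least 285-fold) and Rgs2 (27.5-fold) fell most in the IL-13 index, and Rgs2 (24.0-fold) and Ilk (22.9-fold) in the IL-5 index.

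At 30 min against activated cells 14 listed genes were called higher and 4 lower in the IL-13 index (median 0.67, against -0.09 over all genes), and 12 and 2 in the IL-5 index (median 0.44, against 0.00). The shares called higher were 32.6% and 27.9%, beside 13.4% and 13.1% of all genes, and those called lower 9.30% and 4.65%, beside 18.3% and 14.1%. Ccr2 (84.1 CPM against 0) and Gnai2 (31.1-fold), a G protein subunit of chemokine receptors, were the largest in the IL-13 index. Itgb3 (95.7 CPM against 0) and Itgav (35.9-fold) were the largest in the IL-5 index. At IL-5 30 min replicate 5 held 93.5% of the Itgb3 reads, and replicate 1 held 74.1% of the Itgav reads. Lower at 30 min were Adam10 (0 against 40.1 CPM) and Itgb2 (4.26-fold) in the IL-13 index, and Ilk (0 against 22.8 CPM) and Icam2 (3.31-fold) in the IL-5 index. Between activated and silent cells 1 was called higher and 11 lower for the activated IL-13 cells (median -1.03, against -0.04), and 1 and 10 in the IL-5 index (median -0.61, against 0.00). Both shares called higher were 2.33%, beside 13.2% and 11.5% of all genes, and those called lower 25.6% and 23.3%, beside 14.4% and 10.7%. Cxcr4 (24.9-fold) and Ccr4 (3.13-fold) were the genes called higher. The log2 ratio of Cxcr4 was 4.64, and 1.84 at the lowest on leaving out 1 cell. Ccr6 (at least 189.8-fold, read in 2 of 11 silent cells) and Adam17 (1 against 165 reads) were the largest called lower in the IL-13 index. Those of the IL-5 index were Itgb3 (0 against 70.1 CPM) and Pxn (2 against 96 reads).

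The genes most like Adam8 and Pecam1 over the 12 groups were found by Pearson's r of log2(CPM + 1), a description over 12 points that share libraries, depth and controls. For Adam8 they were Myo1e, Golgb1 and Tnfrsf12a (r = 0.95 each), and Tdrkh and Adora2b (0.94). Tnfrsf12a, the TWEAK receptor, was at 0 before stimulation in both indexes and at 59.0 and 42.0 CPM at 30 min. Adora2b, an adenosine receptor, went from 0 to 88.2 and 184 CPM. For Pecam1 they were Atf7ip (0.94), Itgav (0.92), Wbp2 (0.88), Rab7 and Nav2 (0.86 each). The integrin of alpha V and beta 3 is a known binding partner of Pecam1. Its beta 3 chain, Itgb3, stood at 191 CPM (IL-13) and 237 CPM (IL-5) before stimulation, where Pecam1 was at 0 and 5.77 CPM. At 30 min Itgb3 was higher in the IL-13 index, at 365 CPM, and lower in the IL-5 index, at 95.7 CPM. Itgav was read in 1 to 5 cells of each group with reads, and in the IL-13 silent cells 60.1% of its 471 reads lay in replicate 6, whereas replicate 7, the silent cell with high Pecam1, had 1 Itgav read. Adam8 and Pecam1 had an r of 0.80 with each other, but both were chosen for their levels in these same groups, so nothing is read from it. Cxcr6 had an r of 0.85 with Pecam1 and 0.58 with Adam8, and for Itgb7 these were -0.07 and 0.16.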

How the data were processed

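RNA of 120 single cells was measured with SMART-Seq v4 3′ DE libraries, for which 5 or 6 libraries were pooled before tagmentation. The deposited files hold unnormalized counts of reads for each gene. To make them the authors aligned reads to GRCm38 with TopHat and used HTSeq to count them. How strand was set and which annotation release was used is not given in the sources used here. Of all counted entries 62.0% lay in genes and 28.7% were not uniquely aligned. The study's tests between cells were not used, because no source gives the animal or culture of a cell.

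Groups came from the index and state in the labels. Counts were summed per group and scaled to 1000000 gene reads (CPM). Ratios used a floor of 3 reads over a group, with exact binomial intervals, and a call needed 2-fold on leaving out any 1 cell, among genes with a mean of at least 10 CPM. With 0 reads in a group, the ratio to the floor is a minimum for the summed counts only. It is no minimum under counting error or on leaving out 1 cell. Cells were thinned to 100000 reads for detection. The members and lists were chosen with earlier results of these data known. Named besides the members were, per comparison, up to 2 listed genes called with the largest rise and 2 with the largest fall, the 5 genes most like Adam8 and Pecam1, and genes overlapping a member. Cd69 and Itgb2 were also named after their values were seen. The call rule was tested on simulated data. Annotation was GENCODE on GRCm38 and upstream sequences RefSeq (GRCm38.p6). Tools were Python 3.11.15, pandas 2.3.3, scipy 1.17.1, numpy 2.4.6 and, for figures, matplotlib 3.10.9. Only alternative scalings came from edgeR 4.0.16 and DESeq2 1.42.0 under R 4.3.3. Alternatives were other scalings, filters, title dates, pre-stimulation cells, a pseudocount, and leaving out cells. Leaving out each gene's highest cell in both groups was chosen after seeing the data.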

Additional observations from a re-analysis of the deposited data

Results flagged for a closer look

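In the 2 groups of 5 cells, the pre-stimulation cells of each index, 7 pairs of a gene and a group had reads, and in 2 of these the highest cell stood apart from the others. The pairs of 1 group share its cells. Chance gives about 1 in 20 such pairs where values follow a normal distribution, which cells with many 0 counts do not, so the number found is not read against it. Itgb1 was at 799.9 CPM in the highest IL-13 pre-stimulation cell, replicate 2, with 55.6 CPM in the next. Itgb7 was at 1702 CPM in the highest IL-5 pre-stimulation cell, replicate 1, with 446 CPM in the next. The causes were not tested.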

How the results depend on the processing

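Of 143 recomputed counts and summaries, 122 stayed within 1.5 times the reported one. From pre-stimulation to 30 min the IL-13 count of 2 fell to 1 with log2(CPM + 10), on the first title date and with a minimum of 50 CPM, and was 1 to 3 on leaving out each cell in turn. With 50 CPM the IL-5 count fell from 3 to 1, and that for activated cells from 2 to 1. From pre-stimulation to IL-13 activated cells the count of 1 was 0 on the first date, 3 with pre-stimulation cells of both indexes, 2 without each gene's highest cell in both groups, and 0 to 2 on leaving out each cell. Between activated and silent IL-13 cells the count of 5 was 3 with TMM factors, without the reads of 6 cytokine genes in the library size, with log2(CPM + 10), on the first date and with 50 CPM, was 1 on the second date, and was 3 to 5 on leaving out each cell. In the IL-5 index the count of 4 was 2 on each date and 2 to 5 on leaving out each cell. Pre-stimulation cells of both indexes turned the Itgb1 ratios of the IL-5 index to -1.56 (30 min), -0.86 (activated) and -0.88 (silent), since the combined cells include 1 with high Itgb1. With 50 CPM Pecam1 and Itgb1 (means of 49.7 and 46.2 CPM) were under the minimum and no longer counted. The cause of the other changes was not tested.

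Of 30 called ratios, 30 held without shallow cells, 29 with DESeq2 size factors, 28 with TMM factors, 26 with CPM averaged over cells, 24 with log2(CPM + 10), 26 without each gene's highest cell in both groups and 20 on the first title date. On the second date 9 of 16 held, and with pre-stimulation cells of both indexes 9 of 14, with 3 reversed. TMM factors moved the median of all genes by up to 0.39 (activated against pre-stimulation, IL-5 index), and DESeq2 factors by up to -0.14. Over all genes a minimum of 50 CPM left 0.301 to 0.473 times as many calls, log2(CPM + 10) left 0.562 to 0.823 times as many, and the other alternatives 0.720 to 1.37 times as many. The share of higher among these calls fell by 13.5 to 19.6 percentage points with pre-stimulation cells of both indexes (1201 higher and 534 lower to 969 and 986 for 30 min against pre-stimulation, IL-13 index). It moved by 9.40 to 31.9 points with all 33 transition cells (890 and 1212 to 1400 and 569 for 30 min against activated cells, IL-13 index) and by -17.0 to 11.7 points on the first date. No paired analysis was possible because replicate numbers were given in accession order only, and ratios within each title date were computed in its place. With 1 sample per group, no difference was tested, and 5 pre-stimulation cells limit every comparison with them.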
